A study of Mus musculus with 18 samples.

Results

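Gadd45a, Gadd45b, Gadd45g, Btg1, Btg2, Tob1, Tob2 and Cdkn1a encode proteins that slow or stop cell division, and their mRNA levels were followed in the mouse myoblast line C2C12 after short enzyme treatments of the kind used to detach cells. The 8 genes were chosen by symbol, with earlier results of these data known, from the deposited count table, which held 25957 genes. All 8 were among the 10075 genes with enough counts to be tested. RNA was measured by BRB-seq, a bulk method that barcodes the cDNA of each sample before pooling and reads mainly the poly(A)-proximal ends of mRNAs, so a level is a relative count and not a length-scaled one. Levels are given below as CPM, counts scaled to a common library total, after library sizes were scaled by the trimmed mean of M values (TMM). Marker ranges, the floor of detection and levels summed over a list use plain library totals instead, without the TMM factors (0.974 to 1.035).

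The 18 libraries formed 6 groups of 3, and all cells were unmodified C2C12 cells grown with 20% serum. Trypsin at 0.25% (200 µL, 37 °C) was left on washed cells for 30 s, 3 min or 30 min in the first 3 groups. In the low trypsin group the same solution was removed again straight away, followed by 3 min at 37 °C. The cold protease group was shaken for 5 min at 4 °C with 200 µL of a cold-active protease. Control cells were lysed on the plate and scraped, with no enzyme described for them, so the enzyme, the wash, the incubation and the way of harvest cannot be told apart in any comparison with control. The 5 comparisons with control also share the same 3 control libraries. The labels number the libraries of a group as lots without saying what a lot is, and the spread behind every p-value is that between these samples, possibly only a technical one. In bulk RNA, fewer cells of a type and less RNA per cell cannot be told apart.

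Gadd45 proteins are small stress-induced proteins that bind the kinase Map3k4 upstream of p38 and Jnk, and also the cell cycle proteins Pcna, Cdk1 and Cdkn1a. Cdkn1a is p21, an inhibitor of cyclin-dependent kinases and a classic target of p53. Btg and Tob proteins share a domain that binds the deadenylases Cnot7 and Cnot8, and through them they speed the shortening of poly(A) tails. Several of these genes are immediate or early response genes with short-lived mRNAs, and Cdkn1a and Btg genes are known for their rise when myoblasts leave the cell cycle and differentiate.

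Libraries held 1490869 to 2480690 counts, and 3 counts, taken as the floor of detection, were worth 1.21 to 2.01 CPM. Myoblast markers were present in all 18 libraries for Myod1 (44.2 to 69.1 CPM), Myf5 (55.7 to 132 CPM), Des and Cdh15, whereas Pax7 reached at most 2.08 CPM. Leukocyte, endothelial and epithelial markers were at or near 0, the highest of these 3 lists being Cd68 at up to 5.62 CPM. Of the neural markers, Tubb3 was at 28.6 to 45.1 CPM and Rbfox3 at no more than 1.24 CPM. Myf5 was higher than in control after 30 s (log2 0.71, edgeR adjusted p = 1.4e-05), 30 min (0.79, 4.08e-06) and low trypsin (0.39, 0.0481). DESeq2 called no myoblast marker higher in low trypsin than in control. Summed over the 5 myoblast markers the level ran from 1180 to 1270 CPM after 30 min of trypsin and from 1040 to 1160 CPM in control. It was 1170 to 1240 CPM after 30 s, 1210 to 1260 CPM after 3 min, 1030 to 1080 CPM in low trypsin and 1120 to 1230 CPM in cold protease. Of 5 tested markers of differentiating muscle, Acta1 was lower after 30 min (log2 -0.48 ± 0.12, edgeR adjusted p = 0.00911) and Tnnt2 higher (0.26 ± 0.08, 0.0397), and the level summed over the list was 338 to 429 CPM after 30 min and 349 to 382 CPM in control. Their part in the results below was not tested. mRNAs of at most 800 nt were lower than control in the short trypsin treatments, with a median log2 change of -0.36 after 30 s and -0.44 after 3 min. The 8 genes have transcripts of 1071 to 5001 nt, and the fitted length trend at these lengths was between -0.09 and 0.04.

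Across the 6 groups, 4 of the 8 genes differed in edgeR's quasi-likelihood F test at a Benjamini-Hochberg adjusted p under 0.05, beside 11.5% of all tested genes. They were Gadd45g (adjusted p = 4.65e-09), Gadd45a (3.97e-06), Tob1 (5.45e-05) and Gadd45b (0.000238). Cdkn1a missed the threshold in this test (adjusted p = 0.0516), and so did Btg2 (0.131), Tob2 (0.279) and Btg1 (0.937). Gadd45a, Gadd45g, Tob1 and Cdkn1a were higher than control after 30 min of trypsin, which is 4 of 8 genes beside 2.07% of tested genes higher, and none was lower. The median log2 change of the 8 genes in that comparison was 0.32, beside 0.0049 over all tested genes. Since the 8 genes and the lists below were chosen with earlier results of these data known, such shares describe and do not test an excess. After 30 s, 1 gene was higher and 1 lower, beside 6.94% of tested genes called in either direction. After 3 min, 1 gene was higher, beside 1.01% of tested genes higher. In low trypsin, 1 gene was higher and 2 were lower, beside 5.19% called. In cold protease, edgeR called none of the 8, beside 0.665% of tested genes. None of the 8 reached an unadjusted p under 0.05 there, and DESeq2 called none, with 7 of its 8 adjusted p-values not given.

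**Figure D1:**
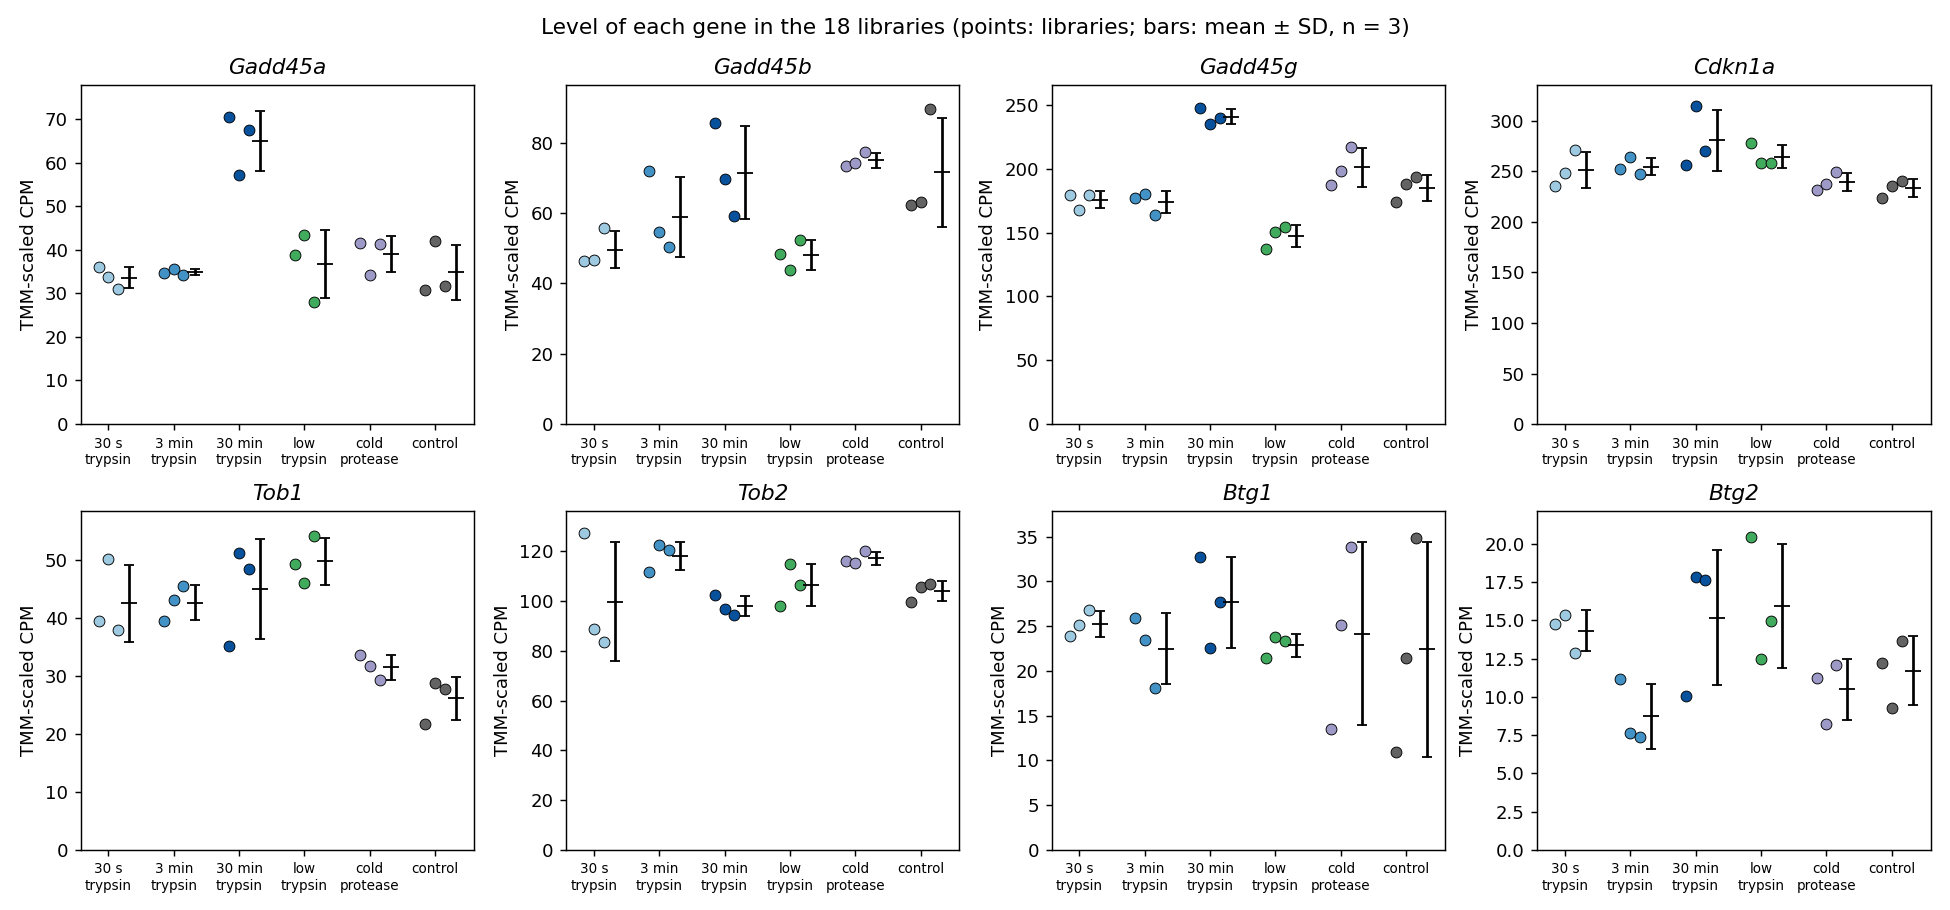
Level of each of the 8 genes in the 18 libraries, in TMM-scaled CPM on axes that start at 0. Points are libraries and bars the mean ± SD of 3. Gadd45a and Gadd45g stand highest in the 30 min trypsin libraries (57.1 to 70.4 CPM and 235 to 248 CPM), and Tob1 lies above its control range in every treated group.

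The promoter stretches of the 4 genes that differed among the groups are shown so that the genes that rose after 30 min of trypsin (Gadd45a, Gadd45g and Tob1) can be read beside Gadd45b, which was not called against control there. The sequences come from RefSeq (GRCm38.p6) and run 5′ to 3′ on the strand of the gene. Each begins 250 bases before the RefSeq transcription start and ends before the first annotated start. Capitals mark matches, on either strand, to the CCAAT box (letters CCAAT), the TATA box (letters TATAAA) or the C/EBP-ATF element (letters TGATGNAAN), the motif class read by heterodimers such as Atf4 or Ddit3 with C/EBP proteins. Gadd45a is at chr6:67037458-67037657 on the minus strand, Gadd45b at chr10:80929841-80930072, Gadd45g at chr13:51846425-51846674 and Tob1 at chr11:94211204-94211453, these 3 on the plus strand.
Gadd45a: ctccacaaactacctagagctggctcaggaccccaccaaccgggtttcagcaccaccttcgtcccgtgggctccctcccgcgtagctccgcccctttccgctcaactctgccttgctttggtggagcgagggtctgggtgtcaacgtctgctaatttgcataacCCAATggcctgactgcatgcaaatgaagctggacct
Gadd45b: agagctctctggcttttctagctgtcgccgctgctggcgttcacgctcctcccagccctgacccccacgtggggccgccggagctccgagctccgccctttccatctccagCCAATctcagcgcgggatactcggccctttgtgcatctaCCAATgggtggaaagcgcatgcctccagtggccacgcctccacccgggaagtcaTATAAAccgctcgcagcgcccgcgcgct
Gadd45g: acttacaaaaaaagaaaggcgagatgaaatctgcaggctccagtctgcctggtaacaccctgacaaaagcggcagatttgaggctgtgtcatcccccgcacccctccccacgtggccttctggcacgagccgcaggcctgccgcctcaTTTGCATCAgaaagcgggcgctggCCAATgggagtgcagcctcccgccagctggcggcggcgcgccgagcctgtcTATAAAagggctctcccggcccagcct
Tob1: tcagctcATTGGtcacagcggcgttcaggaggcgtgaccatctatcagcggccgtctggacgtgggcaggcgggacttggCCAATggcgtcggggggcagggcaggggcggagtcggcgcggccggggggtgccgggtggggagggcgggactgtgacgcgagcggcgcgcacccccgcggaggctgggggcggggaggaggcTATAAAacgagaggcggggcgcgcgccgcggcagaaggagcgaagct
The C/EBP-ATF element was found once, on the minus strand of Gadd45g at -102, and occurs in 3.95% of 32851 RefSeq promoter windows of 300 bases. CCAAT was found in all 4 stretches (37.4% of windows hold it), at -86 in Gadd45a, at -139 and -100 in Gadd45b, at -78 in Gadd45g and at -243 and -170 in Tob1. TATAAA was found in Gadd45b at -46, in Gadd45g at -27 and in Tob1 at -47, beside 13.6% of windows. No match overlapped another in these stretches. Neither the cyclic AMP response element (TGACGTCA, 1.79% of windows) nor the AP-1 site (TGANTCA, 7.81%) occurred in them. Among the other genes, Btg2 held TGACGTCA at -166 and CCAAT at -173 and -34, Btg1 held TATAAA at -26 and CCAAT at -80, and the windows of Tob2 and both RefSeq windows of Cdkn1a held none of the 5 motifs. A match describes letters and does not show binding.

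**Figure D2:**
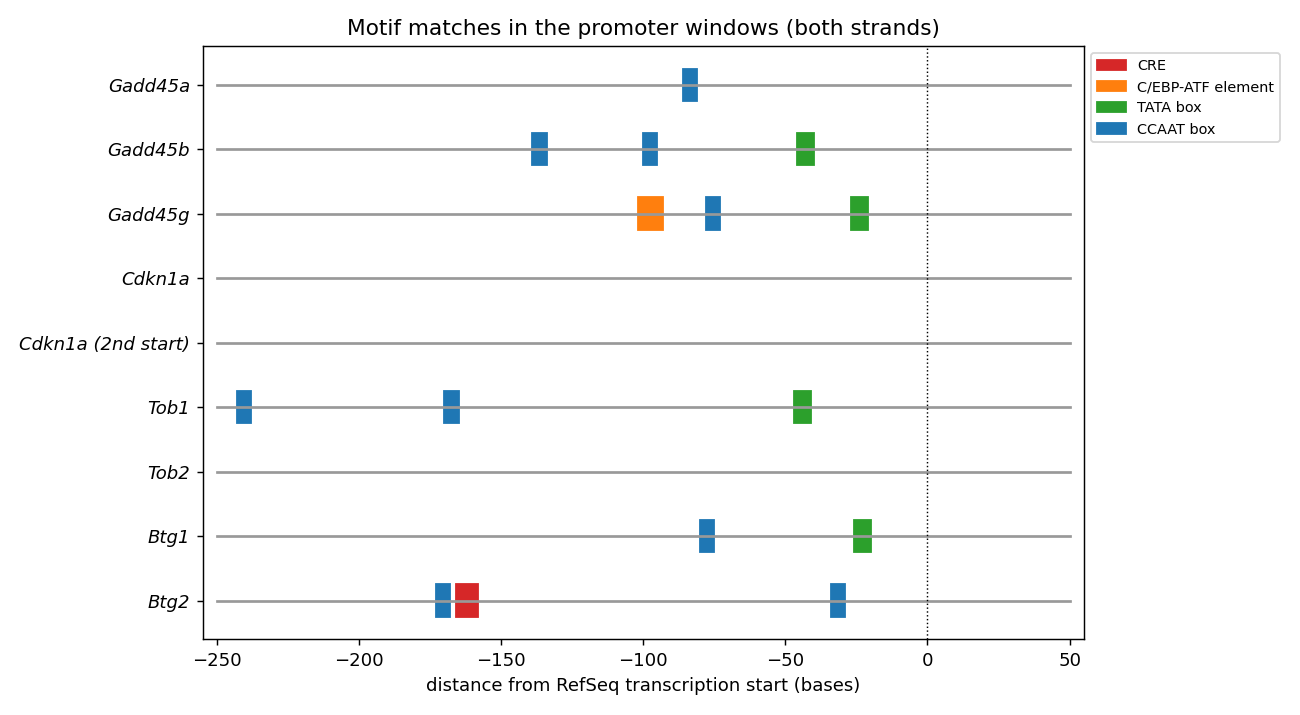
Positions of motif matches on both strands in the RefSeq promoter windows of the 8 genes, in bases from the annotated transcription start. Cdkn1a has 2 windows. The C/EBP-ATF element appears only in Gadd45g among these windows, and the cyclic AMP response element only in Btg2.

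Gadd45a (ENSMUSG00000036390, GRCm38 chr6:67035096-67037457, minus strand), the founding p53-responsive member of its family, was highest after 30 min of trypsin. It was at 36.1, 33.8 and 31.1 CPM after 30 s, at 34.7, 35.5 and 34.2 CPM after 3 min, and at 70.4, 57.1 and 67.5 CPM after 30 min. It was at 38.9, 43.3 and 28.0 CPM in low trypsin, at 41.5, 34.2 and 41.3 CPM in cold protease, and at 30.8, 42.0 and 31.6 CPM in control. The 3 libraries of 30 min lay above all 15 others, which overlapped one another. Against control the log2 change at 30 min was 0.88 ± 0.15 (SE; edgeR adjusted p = 3.84e-05). The 30 min libraries were also higher than those of 3 min (log2 0.89, edgeR adjusted p = 3.71e-05), 30 s (0.94, 7.33e-06) and low trypsin (0.83, 0.000115). Cold protease was lower than 30 min of trypsin (log2 -0.74, edgeR adjusted p = 0.00103). The other 4 treated groups differed from control by -0.05 to 0.15 on the log2 scale, with no call. On the opposite strand E230016M11Rik overlaps Gadd45a, and it held 0 to 7 counts per library. The longest shared stretch lies at nt 309 to 546 of the 1223 nt Gadd45a transcript, and Gadd45a held 48 to 112 counts per library. No source used here says whether strand entered the counting, so reads in such shared stretches cannot be told apart.

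Gadd45g (ENSMUSG00000021453, chr13:51846678-51848468, plus strand), a member known for induction by cytokines and in differentiation, followed the same direction at 30 min. It was at 180, 168 and 180 CPM after 30 s, at 177, 180 and 164 CPM after 3 min, and at 248, 235 and 240 CPM after 30 min. It was at 137, 151 and 154 CPM in low trypsin, at 188, 198 and 218 CPM in cold protease, and at 174, 188 and 193 CPM in control. The 30 min libraries were the 3 highest of the 18 and the low trypsin libraries the 3 lowest, and neither set overlapped another group. Against control the log2 change was 0.38 ± 0.07 (SE) after 30 min (edgeR adjusted p = 0.000498) and -0.33 ± 0.08 in low trypsin (edgeR adjusted p = 0.0034). The widest gap lay between 30 min and low trypsin, with a log2 difference of 0.71 (edgeR adjusted p = 9.14e-10). Low trypsin, at 147 ± 8.78 CPM, was also lower than 3 min of trypsin in all 3 libraries, but that difference did not pass (log2 -0.24, edgeR adjusted p = 0.0779). Cold protease was higher than low trypsin (log2 0.44, edgeR adjusted p = 5.3e-05). Its call as lower than 30 min (log2 -0.26, edgeR adjusted p = 0.0403) ended with DESeq2 (0.064), with no filter on low counts (0.129), with only the 2 groups fitted (0.0508), and when any replicate of 30 min or replicate 1 or 2 of cold protease was left out (up to 0.25).

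Gadd45b (ENSMUSG00000015312, chr10:80930073-80932204, plus strand), the member known as an NF-κB and TGF-β target, did not share the 30 min rise. It was at 46.5, 46.6 and 55.7 CPM after 30 s, at 71.8, 54.6 and 50.3 CPM after 3 min, and at 85.5, 69.7 and 59.3 CPM after 30 min. It was at 48.3, 43.9 and 52.3 CPM in low trypsin, at 73.3, 74.1 and 77.5 CPM in cold protease, and at 62.3, 63.0 and 89.6 CPM in control. The 30 s and low trypsin libraries all lay below the control range, while the 30 min and control ranges overlapped. Against control the log2 change was -0.55 ± 0.14 (SE) after 30 s (edgeR adjusted p = 0.00666) and -0.58 ± 0.14 in low trypsin (edgeR adjusted p = 0.00561). Both calls rested on control replicate 3, and without it the changes were -0.34 (edgeR adjusted p = 0.269) and -0.38 (0.222). After 30 min the change was -0.02 (edgeR adjusted p = 0.973). Cold protease, the tightest group, was higher than 30 s of trypsin (log2 0.60, edgeR adjusted p = 0.0023) and than low trypsin (0.63, 0.00252). Trypsin for 30 min was higher than for 30 s (log2 0.53, edgeR adjusted p = 0.0155), a call that ended without any 1 of 3 libraries, namely replicates 1 and 2 of 30 s and replicate 1 of 30 min (up to 0.194). It was also higher than low trypsin (log2 0.56, edgeR adjusted p = 0.013), a call that ended without replicate 1 of 30 min (0.169) or replicate 2 of low trypsin (0.081).

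Cdkn1a (ENSMUSG00000023067, chr17:29090976-29100727, plus strand) was higher than control after 30 min of trypsin. It was at 235, 248 and 271 CPM after 30 s, at 253, 264 and 247 CPM after 3 min, and at 256, 315 and 270 CPM after 30 min. It was at 278, 258 and 258 CPM in low trypsin, at 232, 237 and 249 CPM in cold protease, and at 223, 236 and 240 CPM in control. All 3 libraries of 3 min, 30 min and low trypsin were above the highest control library. The log2 change after 30 min was 0.27 ± 0.07 (SE; edgeR adjusted p = 0.0168), and the call ended when replicate 2 of 30 min (0.271), replicate 1 of control (0.081) or replicate 2 of control (0.053) was left out. In low trypsin the change was 0.18 (edgeR adjusted p = 0.158). AC167363.2, which overlaps Cdkn1a on the opposite strand, held 0 to 1 counts per library.

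Tob1 (ENSMUSG00000037573, chr11:94211454-94215495, plus strand), which binds Smad proteins and the Cnot deadenylase, had another pattern and was higher than control in each of the 4 trypsin groups. It was at 39.5, 50.2 and 38.0 CPM after 30 s, at 39.5, 43.2 and 45.6 CPM after 3 min, and at 35.2, 51.4 and 48.5 CPM after 30 min. It was at 49.3, 46.0 and 54.2 CPM in low trypsin, at 33.6, 31.7 and 29.3 CPM in cold protease, and at 21.8, 28.8 and 27.8 CPM in control. Every trypsin library lay above every library of cold protease and control. Against control the log2 change was 0.68 ± 0.16 (SE) after 30 s (edgeR adjusted p = 0.00286), 0.69 ± 0.17 after 3 min (0.00613) and 0.77 ± 0.17 after 30 min (0.00138). In low trypsin it was 0.92 ± 0.16 (edgeR adjusted p = 4.2e-05). The 30 s call ended without 30 s replicate 2 (edgeR adjusted p = 0.0644) and the 3 min call without control replicate 1 (0.0535). Cold protease also lay above control in all 3 libraries, but the change of 0.26 ± 0.17 did not pass (edgeR adjusted p = 0.727, 95% interval -0.09 to 0.60). Cold protease was lower than low trypsin (log2 -0.66, edgeR adjusted p = 0.004). Its differences from 30 s (log2 -0.43, edgeR adjusted p = 0.105), 3 min (-0.43, 0.171) and 30 min (-0.52, 0.0789) did not pass, so the data do not separate cold protease from the timed trypsin groups at this threshold.

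**Figure D3:**
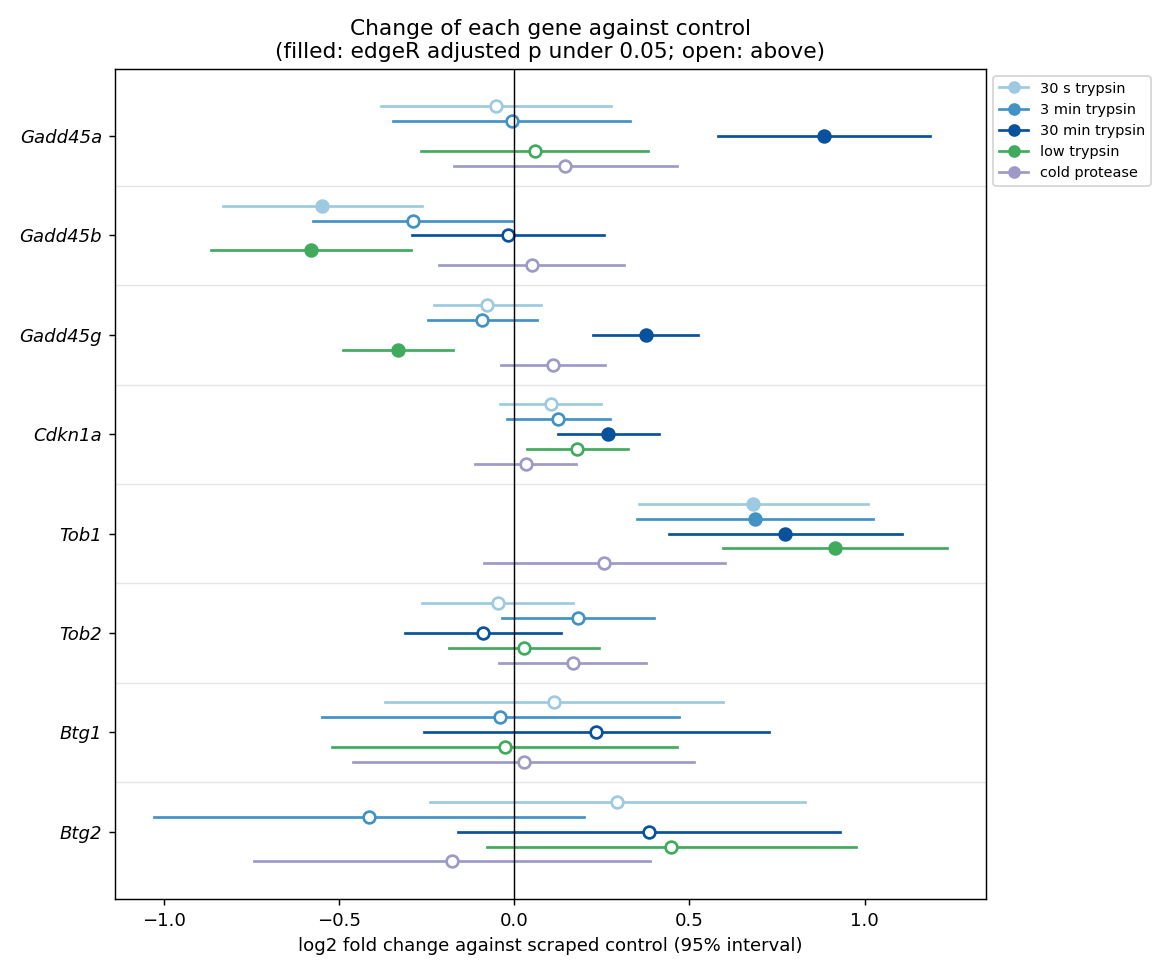
Log2 fold change of each gene against control in the 5 treated groups, with 95% intervals from the edgeR fit. Filled points have an adjusted p under 0.05. For Gadd45a the interval of 30 min lies above 0 and the other 4 span it, while for Tob1 the intervals of all 4 trypsin groups lie above 0.

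Tob2 (ENSMUSG00000048546, chr15:81848272-81858796, minus strand), the close relative of Tob1, was called in none of the 15 pairs of groups. It was at 127, 88.6 and 83.5 CPM after 30 s, at 112, 122 and 121 CPM after 3 min, and at 102, 97.0 and 94.6 CPM after 30 min. It was at 98.1, 115 and 107 CPM in low trypsin, at 116, 115 and 120 CPM in cold protease, and at 99.5, 106 and 107 CPM in control. Libraries of 3 min and cold protease all lay above those of control, and the other treated groups overlapped control. One library, 30 s replicate 1, stood above the other 2 of its group. Without it the F test over the 6 groups passed (edgeR adjusted p = 0.00946), and 3 min (log2 0.46, 0.0126) and cold protease (0.45, 0.00377) were higher than 30 s.

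Btg1 (ENSMUSG00000036478, chr10:96617006-96622809, plus strand), a target of FoxO factors, varied more within groups than between them. Its group means ran from 27.7 ± 5.07 CPM after 30 min (SD, n = 3), the highest, down to 22.4 CPM in control. Control libraries held 10.9, 21.5 and 34.9 CPM and cold protease libraries 13.5, 25.1 and 33.9 CPM, a coefficient of variation of 42.2% in cold protease and 53.6% in control where counting alone gives 14.2% and 14.9%. In the 4 trypsin groups it was 5.58% to 18.3%. Levels of Btg1 are uncertain where reads fell in 312 nt of its transcript that match Gm14519, not analysed here, at 98.7% identity. The match lies at nt 524 to 835 of 5001, far from the poly(A)-proximal end that is mainly read, and read positions were not examined. Btg2 (ENSMUSG00000020423, chr1:134075170-134079120, minus strand), an immediate early p53 target, held 11 to 41 counts per library. Its highest mean was 15.9 ± 4.08 CPM in low trypsin and its lowest 8.74 ± 2.13 CPM after 3 min, and that difference did not pass (log2 0.86, edgeR adjusted p = 0.0782; 0.0485 without low trypsin replicate 2). Neither gene was called in any pair of groups, and for Btg2 the 95% interval of the change after 30 min, -0.16 to 0.93, leaves a wide range. The relatives Btg3 (0 to 9 counts per library) and Btg4 (0 to 1) were too low to test.

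Among the treated groups, the 8 genes gave 2 calls between 30 min and 3 min of trypsin (2.83% of tested genes higher), 3 between 30 min and 30 s (2.82%), and 3 between 30 min and low trypsin (1.35%), all higher at 30 min. Cold protease gave 1 higher gene against 30 s (3.3% of tested genes higher), 2 lower against 30 min (0.754% lower), and 2 higher and 1 lower against low trypsin (3.31% called). None was called between 3 min and 30 s (1.94% of tested genes called; 2 of the 8 at an unadjusted p under 0.05), between low trypsin and 3 min (4.36%; 2) or 30 s (2.98%; 1), or between cold protease and 3 min (3.7%; 3). DESeq2 called none in these 4 comparisons either. In order of mean level, 30 min was the highest group for Gadd45a, Gadd45g, Cdkn1a and Btg1. It differed from the next group down for Gadd45a (edgeR adjusted p = 0.00103) and Gadd45g (0.0403), but not for Cdkn1a (0.617) or Btg1 (0.882). The Gadd45g call, against cold protease, ended with DESeq2 (adjusted p = 0.064) and in the other settings named above. For Gadd45a no neighbours below 30 min differed. For Tob1 the order was control, cold protease, 30 s, 3 min, 30 min and low trypsin, and no neighbours in it differed.

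Over the 18 libraries, log2 levels of Gadd45a and Gadd45g had a Pearson r of 0.70, which fell to 0.09 over the 15 libraries other than those of 30 min. Gadd45b and Gadd45g had r = 0.69, and 0.75 without the 30 min libraries. Tob1 ran with Cdkn1a (r = 0.69, and 0.70 without 30 min) and against Gadd45b (r = -0.58, and -0.71). These libraries share groups and depth, so the values describe the pattern only.

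Of 8524 other genes averaging 10 CPM or more, the 3 whose log2 levels correlated best with each of the 4 called genes were taken. Gadd45a lay closest to Atf4, a transcription factor of the integrated stress response (r = 0.90), then Snhg5 (0.88) and the chemokine gene Cxcl1 (0.87), and without the 30 min libraries these fell to 0.35, 0.62 and 0.20. Gadd45g lay closest to Zfp703 (0.83), Atf4 (0.82) and Ddit3 (0.82), and without the 30 min libraries these 3 values were 0.73, 0.61 and 0.57. Gadd45b lay closest to Npc2 (0.79), Rabepk (0.78) and Mrps15 (0.77). Tob1 lay closest to the nuclear pore gene Nup107 (0.85), the catenin gene Ctnnd1 (0.84) and Mtbp (0.83), which keep 0.88, 0.83 and 0.92 without the 30 min libraries. Of these, Mtbp was higher than control in low trypsin by a log2 of 1.04 ± 0.17 (edgeR adjusted p = 1.18e-05) and Nup107 by 0.87 ± 0.13 (3.48e-06). Mtbp was also higher after 30 s (edgeR adjusted p = 0.0127) and 3 min (0.0307), but did not pass after 30 min (0.312). Nup107 was higher after 30 s (edgeR adjusted p = 0.00674), 3 min (0.00138) and 30 min (0.0365) as well. Cxcl1 was higher after 30 min by 2.71 ± 0.26 (edgeR adjusted p = 1.99e-11).

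**Figure D4:**
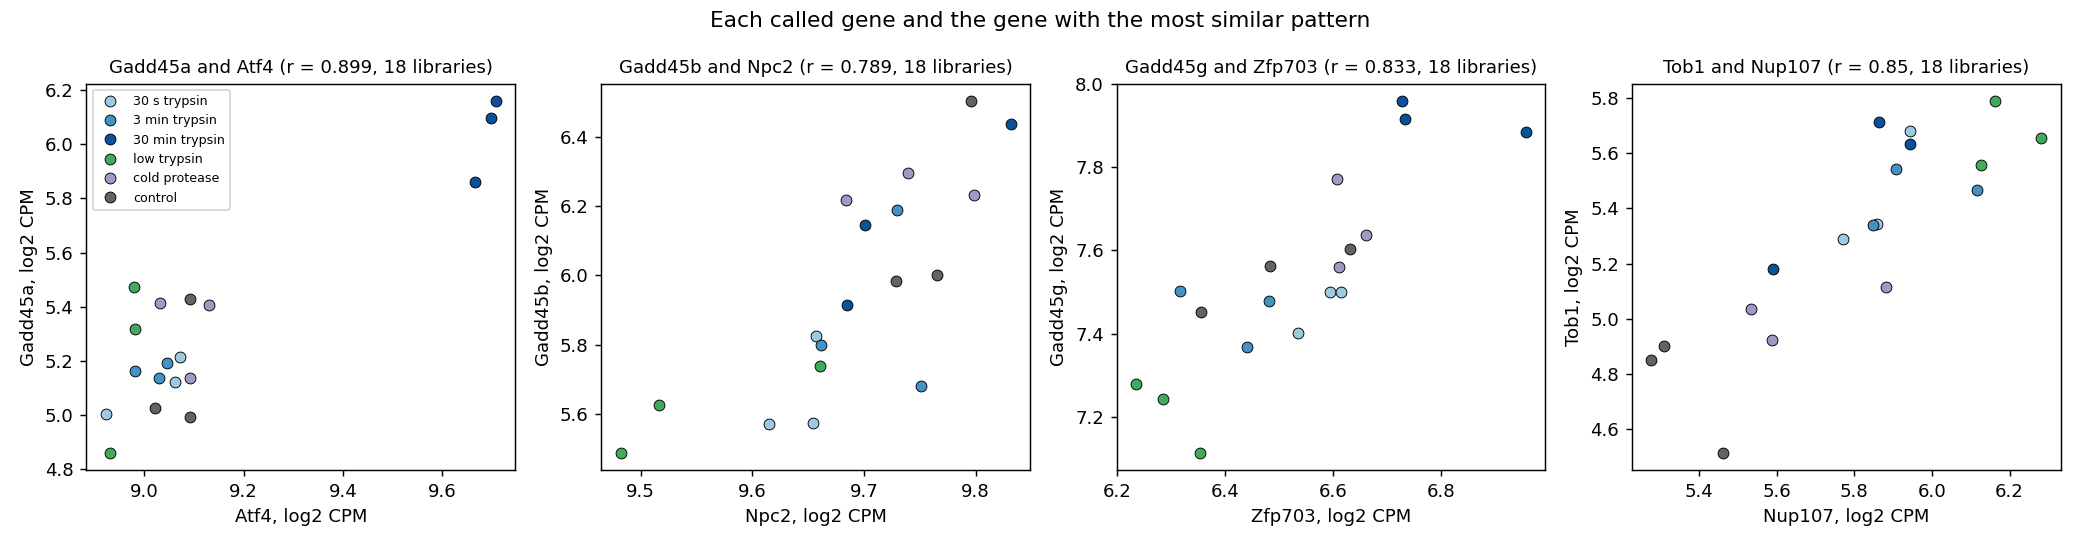
Log2 level of each of the 4 called genes against that of the gene with the most similar pattern, 1 point per library, with Pearson r over 18 libraries. The 3 libraries of 30 min stand apart in the Gadd45a and Atf4 panel, while in the Tob1 and Nup107 panel the libraries run along a line.

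Several transcription factors known to act on these genes were higher at 30 min. Of 18 in the list, all tested, 5 were higher than control after 30 min and none lower (2.07% of all tested genes higher), with a median log2 change of 0.20 beside 0.0049 over all genes. Atf4 was at 826 ± 12.6 CPM after 30 min and 536 ± 14.9 CPM in control (SD, n = 3), a log2 change of 0.62 ± 0.05 (edgeR adjusted p = 7.35e-13). Ddit3, the stress factor CHOP, was at 44.1 CPM on average after 30 min and 22.5 CPM in control (n = 3 each; log2 0.96 ± 0.20, edgeR adjusted p = 0.00108). Klf6, a factor known to induce Cdkn1a, rose by 0.46 ± 0.07 (edgeR adjusted p = 3.33e-06) and Egr1, an immediate early factor, by 0.56 ± 0.12 (0.00082). Atf3, named because it completes the 5, rose by 1.65 ± 0.48 (edgeR adjusted p = 0.0335) at 6.71 ± 0.37 CPM after 30 min and 2.03 ± 0.65 CPM in control. Its control level lay near the floor of detection (1.38 to 1.9 CPM in control libraries), so the size of this change is uncertain. DESeq2 called 4 of the 18. After 30 s, Klf6 (log2 0.23, edgeR adjusted p = 0.034) and Egr1 (0.36, 0.0434) were higher, and DESeq2 called neither. In that comparison 6.94% of tested genes were called in either direction. In low trypsin Egr1 alone of the 18 was higher (log2 0.66, edgeR adjusted p = 2.53e-05), beside 5.19% of tested genes called in either direction.

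The p53 pathway was read from 25 tested targets of 26 other than Cdkn1a and the Gadd45 and Btg genes. None was called after 30 min (2 at an unadjusted p under 0.05), with a median log2 change of -0.06 beside 0.0049 over all genes. DESeq2 called none either and gave no adjusted p for 8 of the 25. In that comparison 2.07% of all tested genes were higher. At that rate a list of this size would hold few calls or none, so nothing is read from the count. The 1 target called against control in any group was Rps27l, a ribosomal protein paralog, which was lower after 30 s (log2 -0.43 ± 0.06, edgeR adjusted p = 5.07e-07) and 3 min (-0.79 ± 0.07, 6.09e-14). Its transcript has 499 nt, within the class of short mRNAs whose medians were -0.36 and -0.44 in these groups, and the part of length in its change was not tested.

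Genes for partners of the proteins were read from 4 lists. Of 17 deadenylation genes, all tested and including Cnot7 and Cnot8, edgeR and DESeq2 called none against control in any group, with 0 to 2 at an unadjusted p under 0.05 and a median log2 change of 0.12 after 30 min. Since 0.665% to 6.94% of all tested genes were called in these comparisons, a list of this size would hold few calls or none at that rate, and nothing is read from the count. Of 11 tested genes among 12 for the Map3k4, p38 and Jnk route and the Gadd45 partner Gadd45gip1, both tools called none against control, with 0 or 1 at an unadjusted p under 0.05. One of them, Mapk14, the p38α kinase, named after its values were seen, was lower after 30 min than after 3 min (log2 -0.53 ± 0.14, edgeR adjusted p = 0.0119), and DESeq2 also called 1 gene lower there. No share of all tested genes lower is given for that comparison, so nothing is read from this count. For cold protease against control DESeq2 gave no adjusted p for any of the 11, nor for 16 of the 17 deadenylation genes. Of 5 tested CDK inhibitors and pocket proteins other than Cdkn1a, Rbl1, the p107 pocket protein, was higher after 30 s (log2 0.49 ± 0.15, edgeR adjusted p = 0.0388), a call DESeq2 did not make. Of 12 cyclins, CDKs and Pcna, Ccnd1, the cyclin that drives G1, was at 314 ± 20.0 CPM after 30 s, 318 ± 34.8 CPM after 30 min, 302 ± 15.3 CPM in low trypsin and 435 ± 110 CPM in control. Its log2 change was -0.48 after 30 s (edgeR adjusted p = 0.000221), -0.47 after 30 min (0.000778) and -0.54 in low trypsin (5.64e-05), and DESeq2 called no gene of the list after 30 s. Ccnb1, the mitotic cyclin, was lower after 30 min (log2 -0.30 ± 0.08, edgeR adjusted p = 0.0175). Against these 2 genes of the list called by edgeR after 30 min and 1 in low trypsin, DESeq2 called 1 after 30 min and 2 in low trypsin. Of all tested genes, 6.94% were called in either direction after 30 s and 5.19% in low trypsin. For 30 min against control no share lower is given. Nothing is read from the counts called in these lists.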

How the data were processed

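C2C12 libraries were made by BRB-seq. The submitters' processing notes list HISAT2 2.1.0 and featureCounts 2.0.1, beside UMI-tools 1.0.1, Trim Galore 0.6.6, cutadapt 2.6 and DESeq2 1.28.1, and the build GRCm38. Neither strand nor UMI settings are stated there. Only the raw gene counts that the authors deposited were analysed. The 2 other deposited tables, a normalized one proportional to the counts and one scaled to library totals, were not used.

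Genes passing edgeR's filterByExpr were kept (10075 genes, 99.4% to 99.5% of each library's counts). Libraries were scaled by TMM and fitted with edgeR 4.0.16 (glmQLFit, glmQLFTest, R 4.3.3), all 6 groups in 1 fit without covariates, with Benjamini-Hochberg adjustment over all tested genes and a threshold of 0.05. Correlations used log2 CPM with a prior count of 2. Fitting was tested on simulated data. With 3 against 3 libraries an exact permutation test cannot go below p = 0.1, so none was used. Replicates of a group differed by more than counting noise (chi-square per degree of freedom 1.43 to 2.65), so none were merged. The common biological coefficient of variation was 6.08%. Floors and counting coefficients cover counting error only.

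The 8 genes and the lists were chosen with earlier results of these data known. Named genes were all 8 members, the 3 genes best correlated with each member called over the 6 groups, and up to 4 called genes of each list by smallest p. Gene positions are from GENCODE M21. Alternatives were DESeq2 1.42.0, other scaling factors, other filters, only the 2 groups compared, a replicate block, each library left out in turn, and a length trend removed, the last chosen after seeing the data.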

Additional observations from a re-analysis of the deposited data

How the results depend on the processing

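Each of the 128 member results (8 genes in the F test and 15 pairs) was recomputed under the alternatives, except that DESeq2 gave no adjusted p for 13 of them and that the fit of only the 2 groups compared covers the 120 pair results, and none reversed direction when called. Other scaling factors ended no call against control. Between cold protease and 30 min of trypsin the number of the 8 genes called was 2. It was 1 with no filter on low counts, with only the 2 groups compared and with DESeq2, each time without Gadd45g. More genes enter the first of these fits and fewer samples the second, while DESeq2 used the same libraries and genes as the main fit. The cause was not tested. Between low trypsin and 3 min the number was 0, and 1 with the length trend removed (Gadd45g, log2 -0.27, edgeR adjusted p = 0.0378). Leaving out each library in turn gave 1 to 2 called genes for 30 s against control, 0 to 1 for 3 min against control, 0 to 1 for 3 min against 30 s, 1 to 2 for cold protease against 30 s, 1 to 3 for cold protease against 30 min, and 0 to 1 for low trypsin against 3 min. Calls outside these comparisons ended as well. They were Cdkn1a for 30 min against control, and Gadd45b for low trypsin against control and for 30 min against 30 s and low trypsin. Of the member results from single libraries left out, 17 lost their call, 9 gained one and 838 kept their side of the threshold. Cdkn1a over the 6 groups (adjusted p = 0.0516) passed with upper-quartile factors (0.0442), with a filter of 10 CPM (0.0447) and with the length trend removed (0.0325), and did not with DESeq2 (0.112).

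Replicate numbers did not pair the libraries: deviations from the group means of same-numbered libraries had correlations of -0.06 to 0.07 (median 0.0046), 0 of 45 pairs were over 0.1, and 7 of 18 libraries correlated best with their own number. With the replicate block the 4 genes called over the 6 groups stayed 4, and all 128 member results kept their side of the threshold. Depth limits Btg2 and Btg1 most, at 11 to 41 and 17 to 74 counts per library.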
